A study of Mus musculus with 18 samples.

Results

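Livers of female B6C3F1 mice given 2,3-benzofuran by gavage were set against livers of mice given corn oil alone, with 3 arrays in each group, or 6 of the 18 arrays of the series. B6C3F1 is a hybrid strain used in long-term rodent cancer bioassays, and 2,3-benzofuran is a benzene ring fused to a furan ring. Per the labels, the exposed animals received 240 mg/kg in corn oil at 5 ml/kg on 5 days per week for 13 weeks, and the controls received corn oil at the same volume on the same days. Both groups were 5 weeks old at the start and 18 weeks old at sacrifice, and each array held liver RNA of 1 animal. Per the series title, the aim was to find markers in gene expression that foretell liver tumours. The other 12 arrays hold 1,5-naphthalenediamine, N-(1-naphthyl)ethylenediamine dihydrochloride, pentachloronitrobenzene and their shared feed control, with 3 animals each, fed for 13 weeks on 7 days per week at 2000 ppm, 2000 ppm and 8187 ppm for the chemicals in that order. They entered the fit, and they are used below where the change with 2,3-benzofuran is set against theirs. Members of the comparison were the probe sets that map to 1 gene and lay above the median of their array in at least 3 of the 18 arrays, with each gene represented by its brightest such probe set on average, which gave 12169 genes.

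Liver clears foreign compounds in stages. Cytochromes P450 oxidise them, transferases attach glutathione, glucuronic acid or sulfate, and membrane pumps export the products. Furan rings can be oxidised by P450s to products that react with thiols, and such electrophiles release the transcription factor NRF2 from its inhibitor KEAP1, so that genes with an antioxidant response element are transcribed. Mouse liver also differs between the sexes in many P450, transporter and sulfotransferase genes, a difference set largely by the pattern of growth hormone secretion.

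The arrays of the treated animals lay apart from those of the controls in their distribution of signal. Array medians over all probe sets were 4.25 to 4.27 with 2,3-benzofuran and 4.31 to 4.33 with corn oil, whereas upper quartiles were 6.38 to 6.41 with 2,3-benzofuran and 6.24 to 6.26 with corn oil. Over the tested genes, the log2 change had a median of 0.109. Changes of single genes and medians of gene groups are therefore given below relative to that value, with calls made on the deposited log2 scale at a limma adjusted p under 0.05 and counts repeated for genes that were also called the same way after quantile normalization. The shift varied with level, from a median of -0.0949 in genes with a mean signal under 5 to 0.25 in genes between 7 and 8. Signal of 18S ribosomal RNA was 10.995, 6.22 and 7.93 in treated animals 6, 8 and 10, against 6.18, 6.30 and 6.11 in corn oil animals 22, 24 and 25, and RNA integrity numbers were 9.4, 9.2 and 8.3 against 8.8, 7.4 and 8.8. An index of clock genes was -1.47, -1.46 and -0.70 in the treated animals, against -0.75, 2.03 and 2.17 in the controls, so control animal 22 lay with the treated animals. The part of these measures in the results was not tested beyond the refits given with the counts and in the closing section. A group mean under 4.25, the smallest of the array medians, may be background, so a rise from such a mean is given as "at least" its size when each control array counts as the higher of its median and the gene's own signal. Precision is limited by the 3 arrays in each group.

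**Figure D1:**
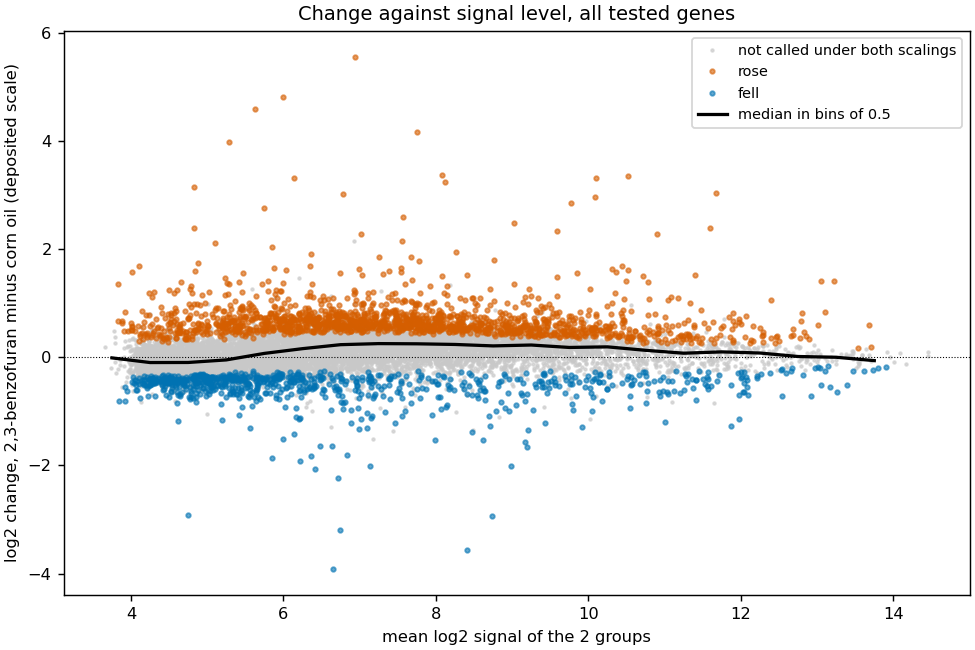
Log2 change on the deposited scale, 2,3-benzofuran minus corn oil, against the mean log2 signal of the 2 groups for each of the 12169 tested genes. Genes called under both scalings are coloured, and the line is the median in bins of 0.5, which lies above 0 at middle signal levels and below 0 at low ones.

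Treatment was followed by changes in a large share of the genes measured. On the deposited scale 3013 genes rose, or 24.8% of those tested, and 923 fell, or 7.58%. After quantile normalization 1537 rose (12.6%) and 1304 fell (10.7%), so the split between directions depends on the scaling, whereas 1524 (12.5%) rose and 775 (6.37%) fell under both. Of these, 119 rose and 66 fell by at least 2-fold relative to the median, and 25 and 10 by at least 4-fold. A lack of overlap between the groups was common. In 35.6% of all tested genes every treated array lay above every corn oil array, and in 13.6% below. Leaving out each of the 6 arrays in turn kept 1369 of the 1524 rises but 331 of the 775 falls. With the clock index as a covariate 1401 rose and 312 fell on the deposited scale. Over the same genes, 2185 rose and 698 fell with the 18S signal as a covariate, and 2463 rose and 553 fell with RNA integrity. With the feed control in place of corn oil 4147 of the 12169 genes rose and 1209 fell. The count of falls on the deposited scale was 511 without corn oil animal 24, 601 without corn oil animal 25 and 598 without treated animal 8.

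The genes with the largest rises include a drug exporter, reductases, an iron uptake receptor and enzymes of amino acid synthesis. Abcc4, an efflux pump for conjugated bile acids and drugs, had log2 signals of 9.94, 9.67 and 9.53 in treated animals 6, 8 and 10, against 4.08, 4.24 and 4.14 in corn oil animals 22, 24 and 25, the order of animals kept below. All 3 control arrays lay below the lowest array median and the groups lay far apart, with a rise of at least 5.28 on the log2 scale, or 38.9-fold (n = 3 per group, limma adjusted p = 3.55e-10). The carbonyl reductase gene Cbr3 had signals of 8.45, 8.54 and 8.23 with 2,3-benzofuran and 3.66, 3.47 and 3.64 with corn oil, a rise of at least 3.98. Cyp4a12a, a fatty acid hydroxylase made mainly in male liver, gave 7.92, 7.96 and 7.89 in treated females and 3.44, 3.38 and 3.18 in controls, a difference of at least 3.49. Treated arrays agreed within less than 0.1 for that gene, while 0 of the other 15 arrays of the series lay above its median. Cyp4a12a thus entered the tested genes through the treated arrays alone and had to differ, as did 9 of the 1524 genes that rose under both scalings, so its p-value is not given. Snhg11, a host gene of small nucleolar RNAs, rose by at least 2.85, but its 2 probe sets gave measured changes of 3.88 and 0.08, and the gene 9130409I23Rik rose by 4.06 ± 0.254 (SE, n = 3 per group). Csad, which makes the taurine precursor hypotaurine, had signals of 10.37, 8.90 and 9.94 with 2,3-benzofuran, against 7.03, 6.08 and 6.38 with corn oil, and Hspb1, a small heat shock protein, had 12.09, 11.37 and 11.81 against 8.44, 8.62 and 8.28. Both groups of arrays were separate in these 2 genes, with changes of 3.13 ± 0.346 and 3.20 ± 0.203.

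The largest falls were less even between animals. Sult2a2, a sulfotransferase for steroids and bile acids, had log2 signals of 4.36, 7.51 and 7.99 with 2,3-benzofuran and 8.75, 11.14 and 10.65 with corn oil. Treated animal 6 lay far below the other 2 treated animals, and the groups did not overlap (-3.67 ± 0.847, adjusted p = 0.00447). Hao2, a peroxisomal hydroxyacid oxidase, fell more evenly, with 6.80, 7.83 and 7.16 in treated animals and 10.15, 10.18 and 10.29 in controls (-3.05 ± 0.477, adjusted p = 0.00027). Atp11a, a phospholipid flippase, had 5.38, 5.21 and 5.19 in treated animals and 7.87, 7.01 and 6.63 in controls (-2.02 ± 0.304), and the antisense gene Hectd2os had 4.74, 5.30 and 4.70 and 7.08, 6.69 and 6.58 (-1.98 ± 0.199). Dbp, a clock output factor, had the largest fall of all, -4.03 ± 1.31 (adjusted p = 0.0295), but its controls were split, with 4.59, 4.33 and 5.15 in treated animals and 5.40, 10.08 and 10.33 in controls. Its call was lost without any of 5 arrays (adjusted p up to 0.127 without control 25, and 0.0778, 0.069, 0.121 and 0.0517 without treated animal 8, treated animal 6, control 24 and treated animal 10). With the clock index as a covariate the change of Dbp was 0.26 (adjusted p = 0.584), but Dbp is part of that index, so this refit cannot test it. Sult2a2 did not pass with that covariate (-2.77, adjusted p = 0.089).

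**Figure D2:**
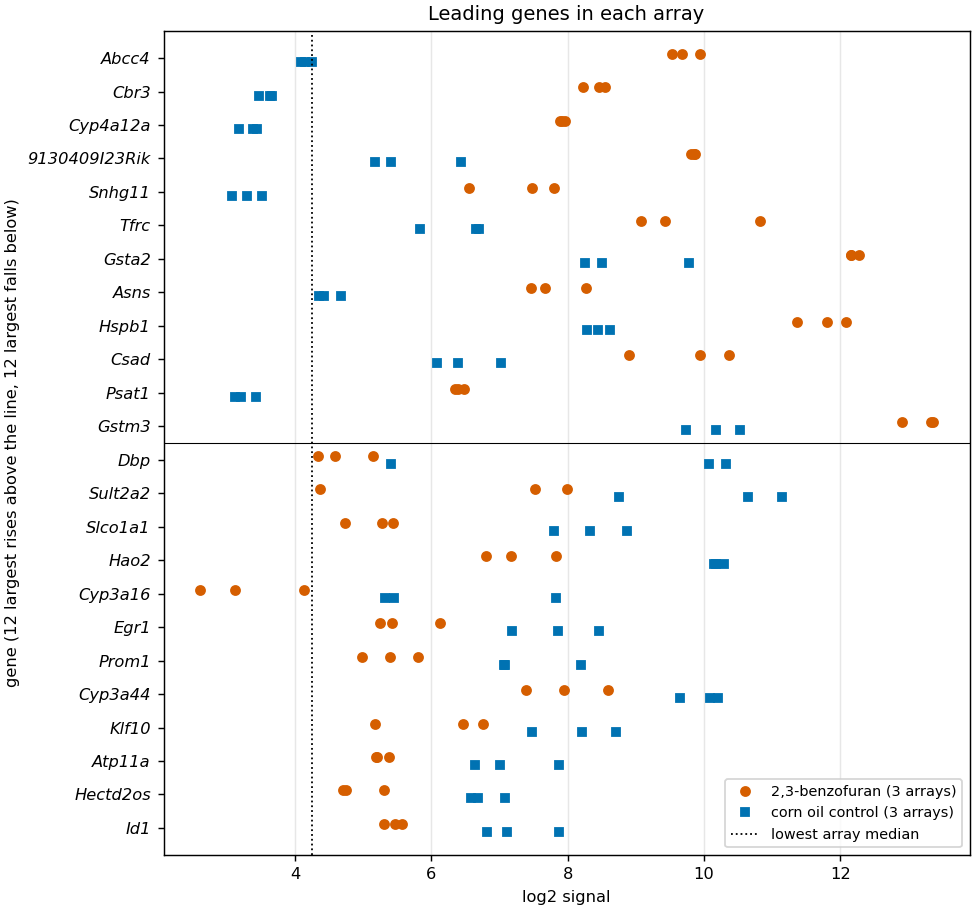
Log2 signal in each of the 3 treated and 3 corn oil arrays for the 12 genes with the largest rise and the 12 with the largest fall among genes called under both scalings without overlap. Controls of Abcc4, Cbr3, Cyp4a12a, Snhg11 and Psat1 lie below the dotted line at 4.25, the lowest array median, and the controls of Dbp lie in separate places.

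Genes were also counted in 52 groups by function or cell type, which hold 1126 listed symbols, of which 999 are on the array and 925 were tested. The groups with the largest shares of rises under both scalings were glucuronidation, tubulins and keratins, glutathione S-transferases, quinone and carbonyl reduction and proteasome subunits. Complement and coagulation, female-biased genes and the interferon response had the largest shares of falls. Many groups share members, and the counts below are set beside the shares of all tested genes given above. Group counts against the feed control belong beside the larger all-gene counts of that refit, 4147 rises and 1209 falls. Likewise, group counts under a covariate belong beside the smaller all-gene counts of the same refit, given above. Kept probe sets of 1 gene differed in size in several genes named below, with changes from -0.11 to 1.91 over 4 probe sets of Srxn1, 0.22 to 1.10 over 5 of Hspa4l, 0.13 to 1.45 over 3 of Slc11a2, -0.73 to -0.13 over 3 of Fads2, 0.10 to 0.40 over 4 of Sod2 and 0.01 to 0.38 over 3 of Qars. The 2 probe sets each of Arntl, Cdkn1a, Cxcl9, Mcm2 and Slc35d1 gave 0.13 and 1.52, 0.12 and 1.58, -1.41 and -0.33, 0.05 and 0.72, and 0.14 and 1.16, in that order of genes. Those of Tfrc gave 1.27 and 3.27, and those of Atp11a, named above, gave -2.02 and -0.89.

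**Figure D3:**
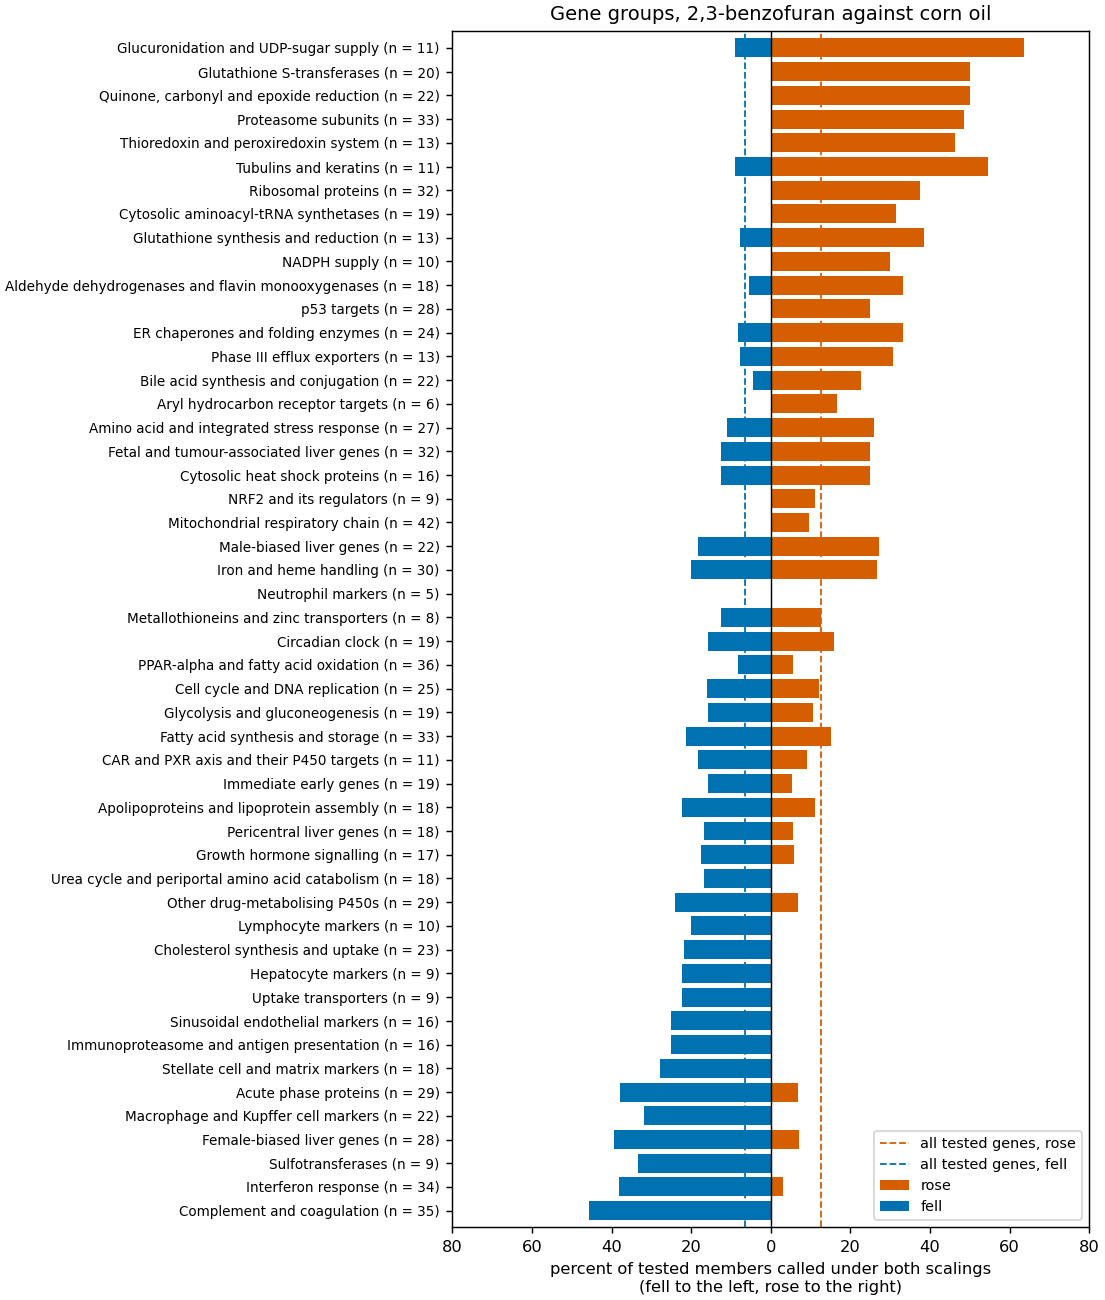
Percent of the tested members of each gene group that rose (right) or fell (left) with 2,3-benzofuran under both scalings, for the 50 groups with at least 5 tested members. Dashed lines mark the same shares over all tested genes, 12.5% rose and 6.37% fell.

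Pumps move conjugates out of hepatocytes and uptake carriers bring compounds in. Of 13 efflux exporters 4 rose and 1 fell, also under both scalings (median 0.02). Abcg2, a pump for sulfate conjugates and porphyrins, had log2 signals of 9.24, 9.31 and 8.97 in treated livers and 7.77, 7.54 and 7.65 in controls (1.41 ± 0.168, adjusted p = 6.89e-06), with no overlap. Abcc3, which exports glucuronides toward the blood, rose by 0.68 ± 0.104, and Abcc2, which exports conjugates into bile, by 0.57 ± 0.159. The bile salt export pump Abcb11 was at -0.30 (adjusted p = 0.188) and did not pass. Abcc6 fell (-0.60 ± 0.119). Among 9 uptake transporters 1 rose and 2 fell, with 0 and 2 under both scalings (median -0.32). Slco1a1, an organic anion transporter of the sinusoidal membrane, had 5.44, 4.74 and 5.28 in treated livers, against 8.88, 7.80 and 8.33 in controls, where the lowest control was well above the highest treated animal (-3.29 ± 0.59, adjusted p = 0.000772). Slc22a7, another organic anion transporter, fell to 6.99, 7.11 and 7.57 against 8.97, 8.96 and 8.33 (-1.64 ± 0.225). The bile acid uptake carrier Slc10a1 was at -0.15 (adjusted p = 0.637).

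Enzymes that reduce quinones, carbonyls and epoxides or hydrolyse them rose in 12 of 22 cases with 0 falls, and in 11 under both scalings (median 0.33). Aox1, an aldehyde oxidase, had log2 signals of 11.33, 11.13 and 11.13 with 2,3-benzofuran, against 8.45, 8.27 and 8.32 with corn oil (2.75 ± 0.128, adjusted p = 4.86e-11). Ephx1, the microsomal epoxide hydrolase, had 12.86, 12.81 and 12.71 against 10.23, 10.25 and 10.70 (2.29 ± 0.146). Nqo1, a quinone reductase and a standard NRF2 target, had 8.79, 8.95 and 8.85 in treated livers and 5.87, 6.29 and 6.64 in controls. The controls of Nqo1 spread more widely than the treated animals, and all lay below them (2.49 ± 0.228). Cbr1 and Akr1c19 rose by 1.50 ± 0.127 and 1.47 ± 0.182. Hmox1, heme oxygenase, rose by a smaller 0.66 ± 0.155 (adjusted p = 0.00145). Nqo2, Akr1d1, Aox3 and Ephx2 had values between -0.44 and -0.09 and did not pass.

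Of 20 glutathione S-transferases 12 rose and 0 fell, with 10 rises under both scalings (median 0.26). Gsta2 had log2 signals of 12.16, 12.28 and 12.16 in treated livers, against 8.51, 8.26 and 9.78 in controls, of which animal 25 was the highest (3.25 ± 0.356, adjusted p = 4.28e-06). Gstm3 gave 13.33, 13.36 and 12.90 against 9.74, 10.53 and 10.18 (2.94 ± 0.255), and its probe set is of a kind that can bind several genes. Gstp1, Gstm1 and Gstm2 rose by 1.30 ± 0.0852, 1.30 ± 0.0971 and 1.45 ± 0.105, and Gstm4 by 2.23 ± 0.196. Gstp1 was already at 12.25, 12.39 and 12.41 in controls, so its rise to 13.74, 13.77 and 13.77 came on top of a high level. Gstm5, Gstt3 and Gstk1 were at -0.07, -0.05 and -0.15 and did not pass. The count of rises was 10 with the clock index and 16 with the feed control in place of corn oil. Genes of this family are similar in sequence, and cross-binding between them was not tested.

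Genes that make and recycle glutathione rose in 5 of 13 cases and fell in 1, also under both scalings (median 0.32). Both subunits of glutamate-cysteine ligase, the rate-limiting enzyme of glutathione synthesis, rose. The regulatory subunit Gclm had 10.89, 10.86 and 10.92 in treated livers and 10.02, 10.05 and 9.95 in controls (0.77 ± 0.152, adjusted p = 0.000434), and the catalytic subunit Gclc had 12.04, 12.01 and 11.69 and 11.03, 11.20 and 10.90 (0.76 ± 0.196). Gsr, which reduces oxidised glutathione, and Gss, which joins its last residue, rose by 0.93 ± 0.141 and 0.63 ± 0.116. Gpx4, a peroxidase for lipid peroxides, rose by 0.89 ± 0.0858. Cbs, the entry enzyme of transsulfuration, fell, at 10.67, 10.71 and 10.76 with 2,3-benzofuran and 11.25, 11.49 and 11.41 with corn oil (-0.78 ± 0.0946, adjusted p = 7.88e-05), while the next enzyme Cth was at -0.09 (adjusted p = 0.924).

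The thioredoxin and peroxiredoxin group rose in 6 of 13 cases with 0 falls, also under both scalings (median 0.30). Srxn1, which repairs oxidised peroxiredoxins, led with 9.08, 8.30 and 8.43 against 6.72, 6.77 and 6.74, all treated animals above all controls (1.75 ± 0.195, adjusted p = 3.74e-06). Glrx, Prdx3 and Sod2 rose by 0.60 ± 0.0927, 0.58 ± 0.0868 and 0.40 ± 0.0903. Txn1 and Txnrd1, thioredoxin and its cytosolic reductase, rose by 0.31 ± 0.0757 and 0.43 ± 0.108. Of the kept probe sets, 1 of 2 for each of Txn1 and Txnrd1, and 3 of 4 for Srxn1, went the way reported. In the NADPH supply, which powers these reductases, 3 of 10 rose, also under both scalings, namely Pgd (1.03 ± 0.119), Tkt (0.99 ± 0.106) and Me1 (0.75 ± 0.191). Against the feed control 10 of the 13 and 6 of the 10 rose.

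Rises were no more frequent among the regulators themselves than over all tested genes (24.8%). Their changes ran from -0.67 to 0.31 (median -0.19), and after quantile normalization 1 rose and 1 fell. Of 9 genes for NRF2 and its partners 2 rose, and 1, Sqstm1, did so under both scalings (0.28 ± 0.104), a call that was lost without treated animal 6 (adjusted p = 0.0598). Nfe2l2, which encodes NRF2, was at -0.19 (adjusted p = 0.553) and Keap1 at 0.13 (adjusted p = 0.0935). The second rise on the deposited scale was Nfe2l1 at 0.31 (adjusted p = 0.0245), and 1 call was left without treated animal 6, treated animal 10, corn oil animal 22 or corn oil animal 24. None passed with the clock index, and 4 rose against the feed control.

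Promoters of these genes, from 250 bases before to 50 after the start site, were read from RefSeq (GRCm38.p6) and searched on both strands for the core of the antioxidant response element, TGACNNNGC. Of 36 genes of the exporter, thiol, quinone and transferase groups that rose under both scalings 31 had a window and 7 held the core, against 8 of 37 with a window among members that did not pass and 14.0% of all genes. Shown for their place in the results above are Abcc4 (chr14:118706170-118706469, minus strand), Gclm (chr3:122245307-122245606, plus strand) and Srxn1 (chr2:152105274-152105573, plus strand), each 5′ to 3′ along its gene with the match in capitals.
Abcc4: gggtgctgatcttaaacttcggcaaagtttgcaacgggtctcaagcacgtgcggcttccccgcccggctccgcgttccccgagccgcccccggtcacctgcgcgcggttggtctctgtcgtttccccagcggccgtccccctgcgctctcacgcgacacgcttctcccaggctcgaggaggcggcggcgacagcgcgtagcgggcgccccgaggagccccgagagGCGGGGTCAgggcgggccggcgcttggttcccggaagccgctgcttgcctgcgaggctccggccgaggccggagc
Gclm: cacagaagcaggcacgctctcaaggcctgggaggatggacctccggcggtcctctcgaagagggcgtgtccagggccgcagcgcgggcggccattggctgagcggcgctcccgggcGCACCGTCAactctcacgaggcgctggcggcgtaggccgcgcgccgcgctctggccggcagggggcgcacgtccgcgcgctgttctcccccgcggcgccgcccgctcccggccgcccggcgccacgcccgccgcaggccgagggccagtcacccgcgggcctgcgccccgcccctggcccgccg
Srxn1: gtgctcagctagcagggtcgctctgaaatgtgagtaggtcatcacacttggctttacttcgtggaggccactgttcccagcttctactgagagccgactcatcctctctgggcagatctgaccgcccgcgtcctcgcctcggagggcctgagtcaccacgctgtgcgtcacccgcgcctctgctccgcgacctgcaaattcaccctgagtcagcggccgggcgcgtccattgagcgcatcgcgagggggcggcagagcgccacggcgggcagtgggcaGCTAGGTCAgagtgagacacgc
The matches in these 3 windows are on the strand opposite to the gene. A match is a run of letters in a window and does not show that a factor binds there.

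Glucuronidation genes had the largest share of rises of any group, with 8 of 11 up and 1 down, or 7 and 1 under both scalings (median 0.59). Ugdh, which makes the UDP-glucuronic acid that the transferases use, had log2 signals of 12.07, 11.96 and 12.09 in treated livers, against 9.74, 9.76 and 9.78 in controls, with a spread of under 0.2 inside either group (2.17 ± 0.143, adjusted p = 4.51e-09). Slc35d1, which carries UDP-sugars into the endoplasmic reticulum, rose by 1.16 ± 0.113. Among transferases, Ugt2b35 rose by 1.27 ± 0.144 and Ugt2b5 by 0.71 ± 0.0854, and Ugt2b1, Ugt2b34 and Ugt2b36 by 0.59 ± 0.115, 0.52 ± 0.0914 and 0.29 ± 0.0766. Ugt3a2 was called lower at -0.42 ± 0.11 (adjusted p = 0.0359), a call that was lost without any 1 of the 6 arrays (adjusted p 0.0525 to 0.103, with the highest without treated animal 6).

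Sulfation genes went the other way, with 1 of 9 up and 3 down, or 0 and 3 under both scalings (median -0.34). Besides Sult2a2, Sult1d1 had 9.42, 9.95 and 9.97 with 2,3-benzofuran and 10.44, 10.73 and 10.57 with corn oil (-0.91 ± 0.163, adjusted p = 0.00148), and Sult1c2 fell (-1.21 ± 0.24). In the refit with the clock index 0 of the 9 rose and 1 fell. Papss1, which makes the sulfate donor, was at 0.48 and called on the deposited scale only (adjusted p = 0.0131). Of 18 aldehyde dehydrogenases and flavin monooxygenases 7 rose and 1 fell, with 6 and 1 under both scalings (median 0.08). Aldh1a1, which oxidises retinal, had 13.45, 13.60 and 13.52 in treated livers and 12.72, 12.53 and 12.80 in controls (0.73 ± 0.0836), and Fmo4 rose by 1.47 ± 0.178. Aldh4a1, of proline breakdown, fell (-0.69 ± 0.129). Of the 18, 5 rose and 0 fell with the clock index, and 10 and 0 against the feed control.

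Receptors that sense foreign compounds switch on sets of P450 genes. Of 6 aryl hydrocarbon receptor genes 1 rose, Nqo1, which is also an NRF2 target, whereas 2 did with the clock index and 3 against the feed control. Cyp1a2 was at 0.01 (adjusted p = 0.489), with 12.24, 12.26 and 12.54 in treated livers and 12.05, 12.24 and 12.39 in controls, and the groups overlapped. Cyp1a1, the most inducible target, was at -0.39 (adjusted p = 0.478), with group means of 3.66 in treated livers and 3.94 in controls that are not shown to be above background. Cyp2b10, the standard target of the constitutive androstane receptor CAR, was at 0.38 (adjusted p = 0.317) and Cyp3a11, that of the pregnane X receptor PXR, at -0.07 (adjusted p = 0.67). In the group of 11 genes on these receptors 2 rose and 2 fell, or 1 and 2 under both scalings (median -0.17), where the rise was Cyp3a25 (0.31 ± 0.0849) and the falls were the female-biased Cyp3a44 and Cyp3a16. Without corn oil animal 24 the group had 2 calls in place of 4.

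Among 29 other drug-metabolising P450s 5 rose and 7 fell, with 2 and 7 under both scalings (median -0.14). Cyp2d9, a steroid hydroxylase of male liver, had 11.31, 11.75 and 11.65 with 2,3-benzofuran, against 8.74, 8.33 and 8.74 with corn oil (2.86 ± 0.228, adjusted p = 7.43e-08). Cyp2f2, which oxidises aromatic compounds such as naphthalene in the mouse, rose by 0.50 ± 0.102. Cyp2e1, which oxidises many small solvents, was at -0.18 (adjusted p = 0.406). The falls included Cyp2d40 (-0.84 ± 0.103), Cyp4f14 (-0.76 ± 0.129), Cyp2c23 (-0.73 ± 0.126) and Cyp4f15 (-0.53 ± 0.106). Each was without overlap between the groups, as were 13.6% of all tested genes in that direction. Without treated animal 6 the calls in this group fell to 7, against 12 with all arrays, and the falls of Cyp17a1 and Cyp4v3 were among those lost (adjusted p 0.144 and 0.167). Of the 29, 3 rose and 3 fell with the clock index, and 8 and 7 against the feed control.

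Female-biased and male-biased liver genes each changed in both directions, and the split between directions depended on the control group. Of 28 female-biased genes 3 rose and 11 fell, or 2 and 11 under both scalings (median -0.46), but with the feed control in place of corn oil 7 rose and 6 fell (median -0.26) and with the clock index 3 rose and 4 fell (median -0.50). Cyp3a44, a P450 made mainly in female liver, had 7.95, 7.39 and 8.59 in treated females, against 10.09, 10.21 and 9.65 in controls (-2.12 ± 0.274, adjusted p = 5.79e-05), and the transporter gene Slc22a26 had 8.52, 8.33 and 8.74 against 9.97, 10.06 and 9.62 (-1.46 ± 0.18). Both genes were lower in every treated animal, as were 13.6% of all tested genes. Cyp3a16 fell to 3.12, 2.61 and 4.13, below the lowest array median, so the size of its measured change on the deposited scale, -2.91, is not exact, and without corn oil animal 24, the highest at 5.32, 7.82 and 5.45, it did not pass (adjusted p = 0.054). Prom1, a membrane glycoprotein, fell to 4.98, 5.80 and 5.38 against 7.08, 8.20 and 7.06 (-2.17 ± 0.517, and adjusted p = 0.0904 with the clock index), and Atp6v0d2, a proton pump subunit, to 5.55, 5.88 and 6.98 against 7.01, 7.15 and 7.15, where treated animal 10 nearly reached the controls (-1.08 ± 0.238). Without treated animal 6 the group had 9 calls in place of 14. Abcc4 and Cd36, also female-biased, rose. Cd36, a fatty acid transporter, had 9.42, 10.03 and 9.54 in treated females and 7.62, 7.81 and 8.17 in controls (1.69 ± 0.306). Cyp2b9 and Cux2, a female-biased repressor of male genes, were at -0.30 and -0.45 and did not pass (adjusted p = 0.232 and 0.0595).

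Of 22 male-biased genes 7 rose and 4 fell, or 6 and 4 under both scalings (median -0.29), and against the feed control 6 rose and 8 fell. Of the rises, that of Cyp4a12a was fixed by the filter, as stated above. Beside Cyp4a12a and Cyp2d9, Elovl3, an elongase of very long chain fatty acids, had 8.27, 8.42 and 8.16 in treated females and 5.61, 4.83 and 5.36 in controls (2.91 ± 0.37, adjusted p = 1.96e-05). Cyp7b1, an oxysterol hydroxylase, rose by 0.71 ± 0.182. Slco1a1, Mup3, a major urinary protein, and Susd4 fell, with Mup3 at 12.62, 12.50 and 12.56 against 13.26, 13.22 and 13.34 (-0.82 ± 0.163) and Susd4 at -1.05 ± 0.207. Hsd3b5, a steroid dehydrogenase of male liver, was at -0.93 (adjusted p = 0.164) and did not pass. Of the growth hormone pathway 2 of 17 rose and 3 fell, or 1 and 3 under both scalings. Stat5b, the main carrier of the male growth hormone signal, was at 0.05 (adjusted p = 0.411), Stat5a rose by 0.66 ± 0.183 and Igfbp2 fell (-0.89 ± 0.129). Without corn oil animal 24 the growth hormone group had 2 calls in place of 5. The same group had 0 rises and 2 falls with the clock index, and 1 and 2 with RNA integrity as a covariate. Bcl6, a repressor of female-biased genes, was at 1.02 (adjusted p = 0.298).

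**Figure D4:**
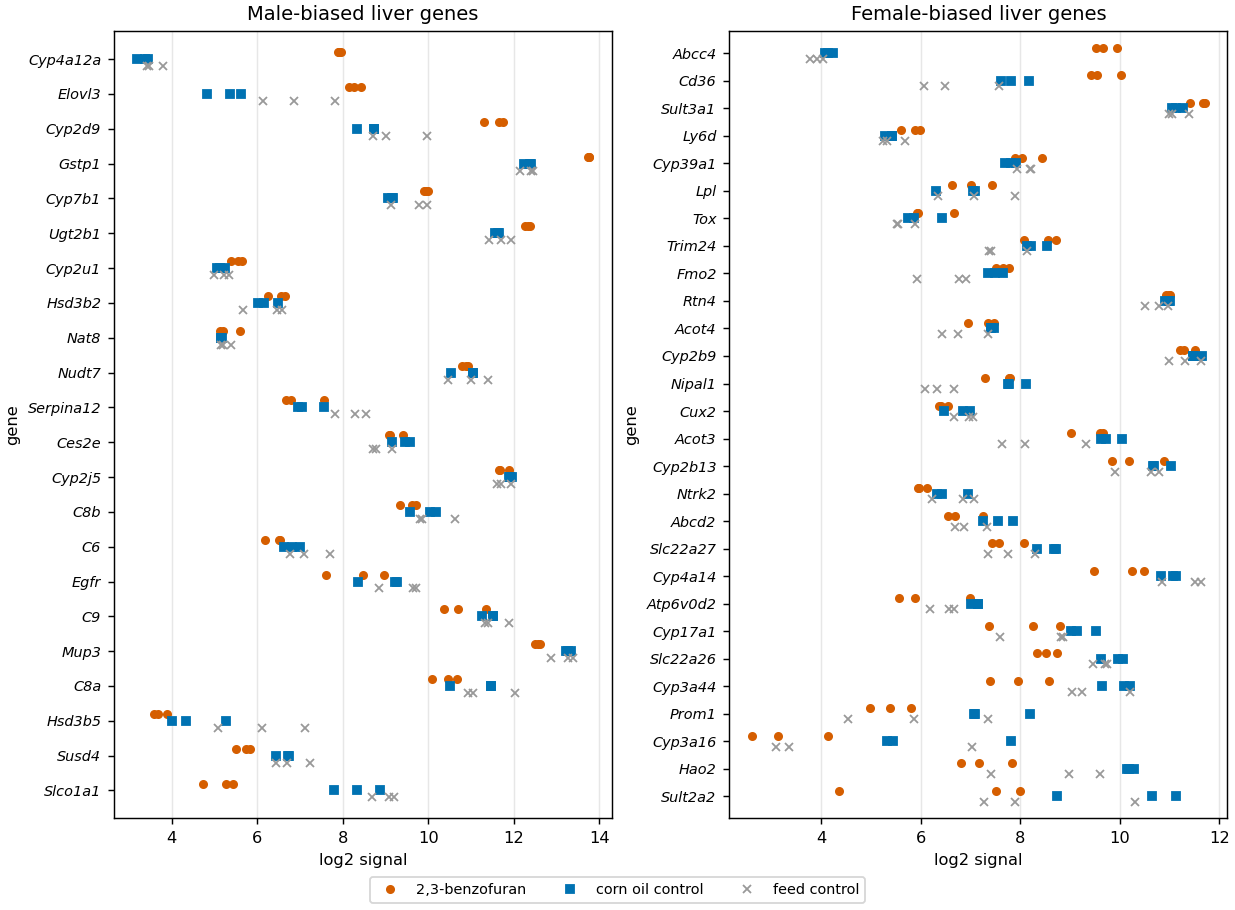
Log2 signal of each tested male-biased (left) and female-biased (right) gene in the 3 treated, 3 corn oil and 3 feed control arrays, ordered by the change with 2,3-benzofuran. In Hao2, Sult2a2 and Prom1 the feed controls spread widely and lie on average below the corn oil controls.

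Few genes passed between the corn oil control and the feed control, with 15 higher (0.123% of those tested) and 0 lower in limma. At an unadjusted p under 0.05 there were 1152. With 3 arrays per group, few calls do not show that the controls were alike. The choice of control decided some calls of the leading genes. Against the feed control Dbp was at -0.69 (adjusted p = 0.763), Prom1 at -0.70 (adjusted p = 0.413), Sult2a2 at -2.04 (adjusted p = 0.0807), Cyp3a16 at -1.38 (adjusted p = 0.202) and Klf10, an immediate early factor, at -1.45 (adjusted p = 0.0786), and these 5 did not pass. Hao2 fell by a smaller amount (-1.56, adjusted p = 0.0251), with 6.80, 7.83 and 7.16 with 2,3-benzofuran and 9.60, 7.41 and 8.97 in feed controls. Sult2a2 had 4.36, 7.51 and 7.99 with 2,3-benzofuran and 10.31, 7.28 and 7.90 in feed controls, which overlap. The rises of Csad and Elovl3 were smaller against the feed control, at 1.73 (adjusted p = 0.000442) and 1.18 (adjusted p = 0.0077), and feed controls of Elovl3, at 6.87, 7.82 and 6.13, lay between the treated and the corn oil animals. The other leading genes described above passed in the same direction against the feed control, namely Abcc4, Cbr3, Snhg11, 9130409I23Rik, Asns, Hspb1, Tfrc, Slco1a1, Atp11a, Hectd2os and Cyp3a44. Feed controls of Cyp4a12a were at 3.42, 3.80 and 3.47, below background like the corn oil controls.

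Genes for amino acid synthesis and the stress response that controls it changed in a split manner. Of 27 members 7 rose and 3 fell, also under both scalings (median -0.06). Asns, asparagine synthetase, had log2 signals of 7.67, 7.46 and 8.27 with 2,3-benzofuran, against 4.67, 4.43 and 4.35 with corn oil (3.21 ± 0.158, adjusted p = 1.08e-10), and Psat1, the aminotransferase of serine synthesis, had 6.34, 6.48 and 6.39 against 3.20, 3.12 and 3.42, below background in controls, a difference of at least 1.97. Like Cyp4a12a, Psat1 entered through the treated arrays alone, with 0 of the other 15 arrays above its median, so its call was fixed by the filter. Psph, which completes serine synthesis, rose by 1.02 ± 0.177, whereas its first enzyme Phgdh was at -0.22 (adjusted p = 0.496). Slc3a2, the heavy chain of amino acid exchangers, rose by 0.98 ± 0.113 and the transcription factor Atf5 by 0.83 ± 0.162. The regulator Atf4 was at 0.04 (adjusted p = 0.442). Further targets of ATF4 did not pass, with Ddit3 at -0.31, Trib3 at -1.10 and Chac1 at -0.95 (adjusted p = 0.159, 0.0643 and 0.0871). Herpud1, of protein degradation at the endoplasmic reticulum, fell to 10.17, 10.79 and 10.23 against 11.78, 11.71 and 11.32 (-1.31 ± 0.194), and the neutral amino acid carrier Slc1a4 fell (-0.87 ± 0.14). The Asns promoter (chr6:7693160-7693459, minus strand, GRCm38.p6, RefSeq) is shown 5′ to 3′ because Asns led the group, with its match to the amino acid response element TGATGNAA in capitals.
Asns: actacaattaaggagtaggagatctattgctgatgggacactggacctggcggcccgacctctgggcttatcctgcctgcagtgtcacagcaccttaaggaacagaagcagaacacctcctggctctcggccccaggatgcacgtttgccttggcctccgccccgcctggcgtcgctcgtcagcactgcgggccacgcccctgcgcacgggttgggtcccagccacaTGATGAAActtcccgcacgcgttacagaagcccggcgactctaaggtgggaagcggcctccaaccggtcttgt
That element was found in 1 of 6 windows of genes of this group that rose, in 2 of 3 that fell and in 5 of 14 that did not pass, and in 4.51% of all genes.

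Cytosolic aminoacyl-tRNA synthetases, which charge tRNAs for translation, rose in 9 of 19 cases with 0 falls, and in 6 under both scalings (median 0.23). Nars, Gars and Lars rose by 0.69 ± 0.112, 0.69 ± 0.113 and 0.65 ± 0.119, with Nars at 10.56, 10.44 and 10.48 in treated livers and 9.64, 9.70 and 9.76 in controls. Vars, Qars and Iars rose by 0.47, 0.38 and 0.37. Aars, Cars and Yars were at 0.08, -0.06 and 0.01 and did not pass. The rises numbered 5 with the clock index.

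Iron and heme genes moved in both directions, with 10 of 30 up and 6 down, or 8 and 6 under both scalings (median 0.03). Tfrc, the transferrin receptor for iron uptake, had 9.43, 10.82 and 9.08 in treated livers, highest in animal 8, against 6.70, 5.83 and 6.65 in controls (3.27 ± 0.328, adjusted p = 1.55e-06). Slc11a2, an iron importer, had 7.42, 7.78 and 7.34 against 6.26, 6.08 and 5.55 (1.45 ± 0.192). Fth1, the ferritin heavy chain that stores iron, rose by 0.49 ± 0.0609, and Hfe and Bmp6, of iron sensing, by 0.84 ± 0.102 and 0.81 ± 0.116. Of heme enzymes, Alas1, the rate-limiting enzyme of heme synthesis, had 11.54, 10.70 and 11.13 against 9.60, 9.22 and 9.64 (1.53 ± 0.352, adjusted p = 0.00222), and the biliverdin reductase Blvrb rose by 1.30 ± 0.115. Hamp, which encodes the iron hormone hepcidin, fell to 13.32, 12.72 and 12.78 against 13.43, 13.70 and 13.63, with treated animal 6 close to the lowest control (-0.76 ± 0.129, adjusted p = 0.00136). Slc39a14, which imports zinc and iron, fell (-0.77 ± 0.145). Tfr2 and Id1 were called lower at -0.42 ± 0.0959 and -1.93 ± 0.575, but each lost its call without 3 of the 6 arrays (adjusted p up to 0.0818 without treated animal 8 for Tfr2 and up to 0.0959 without corn oil animal 24 for Id1). The iron exporter Slc40a1 was at 0.12 (adjusted p = 0.385). Of the 30, 7 rose and 3 fell with the clock index, where Id1 had an adjusted p of 0.507.

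Genes of protein folding and degradation rose in part. Of 24 ER chaperones and folding enzymes 13 rose and 2 fell, or 8 and 2 under both scalings (median 0.36). Derl3, of the export of misfolded proteins from the ER, had 8.26, 8.02 and 8.19 in treated livers and 6.14, 5.73 and 5.75 in controls (2.17 ± 0.233, adjusted p = 3.06e-06). Sdf2l1, Hyou1 and Dnajc3, all ER chaperones, rose by 0.98 ± 0.188, 0.69 ± 0.149 and 0.59 ± 0.163. The main ER chaperone Hspa5 was at -0.27 (adjusted p = 0.444), and Xbp1, a transcription factor of ER stress, fell (-0.54 ± 0.109). In this group 7 rose and 5 fell with the clock index (median 0.12). Cytosolic heat shock proteins rose in 4 of 16 cases and fell in 2, also under both scalings (median 0.27), whereas with the clock index the same counts came with a median of -0.22. Hspa4l, Hspe1 and Hspd1 rose by 1.05 ± 0.165, 0.55 ± 0.0873 and 0.46 ± 0.0811, while the inducible Hspa1b was at -0.55 (adjusted p = 0.685).

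All 33 proteasome subunits tested lay above the median change, and 21 rose with 0 falls, or 16 under both scalings (median 0.22), and 11 rose with the clock index. The catalytic subunit Psmb5 had 10.94, 10.82 and 10.73 with 2,3-benzofuran and 9.92, 10.05 and 10.08 with corn oil (0.70 ± 0.0975, adjusted p = 1.62e-05), and Psmd14, a deubiquitinase of the lid, rose by 0.74 ± 0.102. Their median control signal was 9.75. All genes with a mean between 9 and 10 had a median change of 0.202 on the deposited scale. That value is not relative to the all-gene median of 0.109, unlike the group median of 0.22. After quantile normalization the medians were 0.18 for the group and 0.0277 for genes of that level. Of 16 immunoproteasome and antigen presentation genes 0 rose, 4 fell and 12 did not pass (median -0.33), with 1 rise and 1 fall against the feed control (median -0.11) and 0 and 1 with the clock index. Psmb8, an immunoproteasome subunit, had 8.11, 8.05 and 8.10 against 8.42, 8.80 and 8.60 (-0.63 ± 0.132), and the class I genes H2-D1 and H2-K1 fell (-0.59 ± 0.0946 and -0.38 ± 0.0701).

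Genes for secreted liver proteins and the interferon response lay lower. Of 34 interferon response genes 1 rose and 14 fell, or 1 and 13 under both scalings (median -0.38). Cxcl9, a chemokine induced by interferon gamma, had 6.18, 6.76 and 6.40 in treated livers and 7.65, 7.77 and 7.83 in controls (-1.41 ± 0.164, adjusted p = 2.62e-05). Ifit3 and Gbp7 fell (-1.06 ± 0.157 and -0.79 ± 0.133), and Ifi27l2a and Xaf1 were at -0.95 ± 0.196 and -0.74 ± 0.164. All of these were lower in every treated animal, as were 13.6% of all tested genes. The rise was that of Oasl1 (0.62 ± 0.187), and the regulators Irf7 and Stat2 were at -0.30 and 0.01 and did not pass (adjusted p = 0.406 and 0.691). With the feed control in place of corn oil, 2 of the 34 rose and 4 fell, and with the clock index as a covariate 0 rose and 17 fell.

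Of 29 acute phase proteins 3 rose and 11 fell, with 2 and 11 under both scalings (median -0.35). Lbp, which binds bacterial lipopolysaccharide, had 9.31, 9.31 and 9.32 with 2,3-benzofuran, against 10.31, 10.52 and 10.02 with corn oil (-1.08 ± 0.134, adjusted p = 6.59e-05), with treated animals almost identical. Saa4, Itih4 and Hp, haptoglobin, fell (-0.72 ± 0.108, -0.65 ± 0.0953 and -0.62 ± 0.106). Orm3, an acid glycoprotein, and Cd14, the lipopolysaccharide co-receptor, rose by 1.48 ± 0.248 and 0.90 ± 0.142. The inducible Saa1 and Lcn2 were at -0.34 and -1.39 and did not pass (adjusted p = 0.816 and 0.239). With RNA integrity as a covariate 2 of the 29 rose and 7 fell.

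Complement and coagulation genes fell in 16 of 35 cases with 0 rises, also under both scalings, and all 35 lay below the median change (median -0.38). Coagulation factor F7 had 9.21, 9.42 and 9.47 in treated livers and 9.93, 10.09 and 10.03 in controls (-0.76 ± 0.0888, adjusted p = 5.55e-05). F10, C1s1, Cfb and Serpind1 fell (-0.55 ± 0.0856, -0.56 ± 0.0845, -0.54 ± 0.0833 and -0.59 ± 0.091). Without corn oil animal 24, treated animal 6 or treated animal 8 the group had 8 calls in place of 16, and it had 9 with the clock index or the 18S signal and 8 with RNA integrity as a covariate. Their control levels were high, with a median of 11.14. All genes between 10 and 12 had a median change of 0.128 on the deposited scale. That value is not relative to the all-gene median of 0.109, unlike the group median of -0.38. After quantile normalization the medians were -0.41 for the group and -0.00551 for genes of that level.

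Lipid and bile acid genes changed one by one. Cyp7a1, the rate-limiting enzyme of bile acid synthesis, had 9.87, 9.54 and 11.37 in treated livers, highest in animal 10, against 8.05, 7.42 and 7.86 in controls (2.38 ± 0.536, adjusted p = 0.00232). In its group of 22, 6 rose and 1 fell, or 5 and 1 under both scalings (median -0.03), and Baat, which joins bile acids to taurine, and Acox2 rose by 0.26 ± 0.0956 and 0.44 ± 0.114. Cyp8b1, the sterol hydroxylase that sets the cholic acid share, rose by 1.00 ± 0.298, but not without treated animal 10 or corn oil animal 24 (adjusted p = 0.0559 and 0.0614). The receptors Nr0b2 and Nr1h4 were at 0.02 and 0.16 and did not pass. Of the 22, 1 rose and 0 fell with the clock index (median -0.11), and 1 and 0 without the 5 arrays of highest 18S signal.

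Cholesterol synthesis genes fell in 5 of 23 cases with 0 rises, also under both scalings (median -0.33). Nsdhl, a sterol dehydrogenase, had 9.16, 9.26 and 9.29 with 2,3-benzofuran, against 9.82, 9.64 and 9.62 with corn oil (-0.57 ± 0.121, adjusted p = 0.00844) and 8.81, 8.78 and 9.07 in feed controls. The treated animals of Nsdhl thus lay between the control groups, and against the feed control its change relative to that comparison's median was 0.19 (adjusted p = 0.0254). Tm7sf2, a sterol reductase, fell (-0.62 ± 0.103). With the feed control in place of corn oil 9 members of this group rose and 0 fell, while 4147 of all 12169 genes rose. Falls numbered 3, and rises 0, with the clock index or the 18S signal as a covariate. Leaving out corn oil animal 24, corn oil animal 25 or treated animal 6 left 3, 2 and 3 of the 5 calls. Srebf2, the main regulator, was at -0.24 (adjusted p = 0.387) and the rate-limiting monooxygenase Sqle at -0.36 (adjusted p = 0.398).

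Of 33 genes of fatty acid synthesis and storage 7 rose and 7 fell, or 5 and 7 under both scalings (median -0.20). Elovl3 and Cd36 led the rises, and several desaturases and elongases fell, with Scd1 at 13.13, 13.41 and 12.88 against 13.53, 13.65 and 13.76 (-0.61 ± 0.12), Elovl2 at -0.82 ± 0.13 and Fads2 at -0.73 ± 0.145. Of the 33, 6 rose and 3 fell with the clock index, and 11 and 5 against the feed control. Targets of PPAR-alpha, the receptor for fatty acid oxidation, had 6 rises and 3 falls among 36, with 2 and 3 under both scalings (median -0.09). Cyp4a14, a standard target, was called lower at -1.04 ± 0.285, which was lost without treated animal 6, corn oil animal 22 or corn oil animal 25 (adjusted p up to 0.112). Cpt1a, the rate-limiting step of oxidation in mitochondria, was at -0.40 (adjusted p = 0.19). Pdk4 was at 2.03 (adjusted p = 0.0624) and did not pass. Without corn oil animal 22, corn oil animal 24 or treated animal 6 the 9 calls of that group became 5, 5 and 4, and 3 were left with the clock index or the 18S signal.

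Among apolipoprotein genes, 2 of 18 rose and 4 fell, also under both scalings (median -0.15). Apoa4, a lipid-responsive apolipoprotein, had 12.33, 11.80 and 12.36 in treated livers, against 10.66, 10.64 and 10.60 in controls (1.42 ± 0.148, adjusted p = 1.55e-06). The high density lipoprotein receptor Scarb1 and the remnant receptor Lrp1 fell (-0.55 ± 0.107 and -0.60 ± 0.113). The refit with the clock index left 1 rise and 1 fall. In glucose metabolism 3 of 19 rose and 4 fell, or 2 and 3 under both scalings (median -0.07). Pck1, the rate-limiting enzyme of gluconeogenesis, had 11.26, 11.68 and 12.18 with 2,3-benzofuran and 12.25, 12.42 and 12.36 with corn oil (-0.74 ± 0.163, adjusted p = 0.00713), with treated animal 10 close to the controls, and G6pc was at 0.31 (adjusted p = 0.22). Without treated animal 10, corn oil animal 24 or corn oil animal 25 that group had 4 calls in place of 7, as it did with the clock index, RNA integrity or the 18S signal. Urea cycle and periportal genes fell in 3 of 18 cases (median -0.12), with 0 falls under the clock index, 1 with RNA integrity or the 18S signal as a covariate, and 3 rises and 3 falls against the feed control. They kept 1 call without corn oil animal 24, corn oil animal 25 or treated animal 6, with Agxt at -0.70 ± 0.136 and the rate-limiting Cps1 at -0.31 ± 0.066 (adjusted p = 0.0241, and up to 0.118 without treated animal 6). Pericentral genes rose in 2 and fell in 3 of 18 cases (median -0.17), and Glul, the marker of the innermost layer, was at -0.30 (adjusted p = 0.17).

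Structural and growth genes rose in some families. Of 11 tubulins and keratins 7 rose and 1 fell, with 6 and 1 under both scalings (median 0.62). Tubb4b had 10.62, 10.38 and 9.99 in treated livers and 8.97, 8.91 and 8.66 in controls (1.38 ± 0.135, adjusted p = 6.60e-07), and Tubb2a and Krt8 rose by 1.40 ± 0.276 and 0.97 ± 0.155. Tubb6 was at 1.25, with 1 of its 2 probe sets going that way, and Tuba4a at 0.65, with 2 of 3. Of 28 targets of p53, the damage response factor, 8 rose and 0 fell, or 7 and 0 under both scalings (median -0.05). Ephx1 led this group, and Trp53inp1, Xpc and Zmat3 rose by 0.77 ± 0.16, 0.50 ± 0.118 and 0.52 ± 0.147. Cdkn1a, the p53-induced cell cycle inhibitor, was called higher at 1.58 ± 0.53, with 7.34, 7.53 and 6.72 against 6.40, 4.85 and 5.26, and lost that call without 4 of the 6 arrays (adjusted p up to 0.0984 without corn oil animal 24). Its feed controls, at 6.28, 8.26 and 6.90, overlapped the treated animals (-0.12, adjusted p = 0.949). Of the 28, 5 rose and 1 fell with the clock index. Mdm2 was at 0.31, called on the deposited scale only (adjusted p = 0.0112).

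Genes of the cell cycle rose in 6 and fell in 4 of 25 cases, or 3 and 4 under both scalings (median -0.23). Their shares of rises were close to those of all tested genes, 24.8% and 12.5% under both scalings. The replication helicase genes Mcm2 and Mcm4 rose by 0.72 ± 0.135 and 0.70 ± 0.151, whereas Ccnd1, cyclin D1, fell to 7.46, 7.13 and 7.66 against 8.10, 9.02 and 8.31 (-1.18 ± 0.217, adjusted p = 0.00154). Mki67, a marker of dividing cells, was at -0.36 (adjusted p = 0.173) and Cdk1 at -0.23 (adjusted p = 0.573). Against the feed control 9 of the 25 rose and 2 fell (median 0.02). Of 32 fetal and tumour-associated liver genes 11 rose and 5 fell, with 8 and 4 under both scalings (median -0.07), with S100a10, Lgals1 and Anxa2 at 0.97 ± 0.135, 1.15 ± 0.218 and 0.73 ± 0.135. The oncofetal marker Gpc3 was at -0.42 (called on the deposited scale only, adjusted p = 0.0303) and Igf2 at -0.25 (adjusted p = 0.353). Of the 32, 7 rose and 0 fell with the clock index. Ribosomal protein genes rose in 18 of 32 cases, or 12 under both scalings (median 0.15), with Rps7 and Rplp0 at 0.27 ± 0.0696 and 0.36 ± 0.0898, and 11 rose with the clock index or the 18S signal and 29 against the feed control. Of the mitochondrial respiratory chain 12 of 42 rose, or 4 under both scalings (median 0.07). These shares were near that of all tested genes, 24.8%, and below it under both scalings, 12.5%. The 12 calls became 4 without corn oil animal 22, 5 without treated animal 8 or 10 and 6 without corn oil animal 24. The chain had 2 rises under the clock index and 19 against the feed control. Without the 5 arrays of highest 18S signal 0 ribosomal and 0 respiratory chain genes passed.

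Most marker groups of other liver cells had a median below that of all genes, and so did hepatocyte markers (median -0.16). Of 22 macrophage and Kupffer cell markers 0 rose and 7 fell, and all 22 lay below the median change (median -0.56). Mpeg1, a pore-forming protein of macrophages, had 8.18, 8.22 and 8.14 with 2,3-benzofuran, against 8.76, 8.96 and 8.92 with corn oil (-0.81 ± 0.133, adjusted p = 0.000962), and Csf1r, their growth factor receptor, had 9.75, 9.69 and 9.77 and 10.27, 10.43 and 10.18 (-0.67 ± 0.145). The Kupffer cell markers Clec4f and Vsig4 were called lower at -0.57 ± 0.148 and -0.65 ± 0.198, but each lost its call without treated animal 10, corn oil animal 22 or corn oil animal 24, with the highest adjusted p without treated animal 10 (0.119 and 0.162). Vsig4 also lost it without treated animal 8 (0.0808). The mean of all 22 lay between 6.94 and 7.30 in treated arrays and between 7.38 and 7.71 in controls. With the feed control in place of corn oil 0 rose and 2 fell (median -0.32), and with RNA integrity as a covariate 0 and 2 (median -0.58). The number of falls was 5 with the 18S signal and 11 with the clock index as a covariate, and 0 without the 5 arrays of highest 18S signal, which leaves 1 treated animal. The 7 calls became 2 without treated animal 10 or corn oil animal 22, and 3 without treated animal 8 or corn oil animal 24. In bulk tissue, fewer cells of a type and less RNA per cell cannot be told apart.

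Sinusoidal endothelial markers fell in 4 of 16 cases (median -0.33), with Stab2 at -0.69 ± 0.178, a call lost without corn oil animal 24 or treated animal 6 (adjusted p = 0.077 and 0.0627). Among 18 stellate and matrix genes there were 5 falls and 1 rise, with 5 and 0 under both scalings (median -0.32), with Reln at -0.56 ± 0.118 and Ecm1 at -0.51 ± 0.107. The 4 endothelial calls became 0 without corn oil animal 24, 1 without treated animal 6 or 8 and 2 without treated animal 10. The 6 stellate calls became 2 without corn oil animal 24 and 3 without treated animal 10. Pecam1 and the collagen gene Col1a1 were at 0.06 and -0.06 and did not pass. Lymphocyte markers fell in 2 of 10 cases (median -0.21), with Gzma, a granule enzyme, at 4.61, 4.46 and 4.26 against 4.99, 4.87 and 5.10 (-0.65 ± 0.128), and 1 call was left without treated animal 10, corn oil animal 24 or corn oil animal 25. Treated signals of Gzma lay near the lowest array median, 4.25, so the size of its fall is not exact. Neutrophil and cholangiocyte markers had 0 calls of 5 and 0 of 4, with S100a8 at -0.62 and Krt19 at -0.29. Median control signals were low, at 5.0, 4.685 and 4.64 for lymphocyte, neutrophil and cholangiocyte markers, which limits what these groups can show. Hepatocyte markers, which check the labelled tissue, had a median control signal of 13.85. Of the 9, 2 fell (median -0.16) and all 9 lay below the median change. With any 1 array left out 0 or 1 call was left (0 without corn oil animal 24), while Alb was at -0.08 (adjusted p = 0.672). With the clock index 1 endothelial, 2 stellate, 0 lymphocyte and 1 hepatocyte marker fell, and with RNA integrity 0, 2, 1 and 0.

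Clock genes separated the corn oil animals from each other. Of 19 members 5 rose and 4 fell, or 3 and 3 under both scalings (median -0.41). Arntl, a core activator of the clock, had 7.82, 7.98 and 7.61 in treated livers, against 7.57, 5.69 and 5.27 in controls, and control 22 lay near the treated animals (1.52 ± 0.406, adjusted p = 0.00602). Nr1d2, a clock repressor, had 7.61, 8.01 and 8.58 against 8.39, 9.78 and 9.86, which overlap (-1.39 ± 0.453, adjusted p = 0.0385, and up to 0.147 without corn oil animal 25), and Nr1d1 was at -1.61 (adjusted p = 0.0681). With the clock index as a covariate 0 of the 19 passed, as the index is built from such genes. Immediate early genes rose in 1 and fell in 3 of 19 cases (median -0.32). Junb, a transcription factor of that class, had 5.38, 5.51 and 6.55 with 2,3-benzofuran and 7.18, 7.85 and 7.33 with corn oil (-1.75 ± 0.389, adjusted p = 0.00427), and with the clock index its adjusted p was 0.176, while against the feed control it was 0.237. Egr1 was called lower at -2.35 ± 0.679, but not when corn oil animal 24 (adjusted p = 0.0783) or treated animal 6 or 8 was left out, nor with the clock index (adjusted p = 0.292). With that index 0 of the 19 rose and 1 fell, and with RNA integrity 1 and 1. The clock group kept 3 calls of 9 without corn oil animal 24 or treated animal 8, 4 without treated animal 6 and 1 without corn oil animal 25, and the immediate early group kept 2 of 4 without corn oil animal 24 and 1 without treated animal 6. With the same index the rises of Abcc4 (adjusted p = 1.02e-08) and Asns (adjusted p = 7.45e-09) passed. Among the largest falls, those of Hao2, Cyp3a44, Cyp3a16, Slco1a1, Atp11a and Hectd2os passed too (adjusted p from 3.96e-06 to 0.0413), whereas Dbp, Sult2a2, Prom1, Egr1, Klf10, Id1 and Junb did not. Of these, Dbp is itself part of the index. Klf10 was at -0.88 (adjusted p = 0.388), and the values of the others stand beside their results above. Time of day at sacrifice was not given in the labels used here, and its part in these values was not tested.

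The change with 2,3-benzofuran was then compared with the mean change with the 3 feed chemicals against their feed control, as a difference of differences in the same fit, on the deposited scale. Changes with each feed chemical are relative to their own median over all genes. It passed in 330 genes (2.71%), with 146 more positive (1.2%) and 184 more negative (1.51%) under 2,3-benzofuran. Chemical, route, days per week and control group differ together in this comparison, so their parts cannot be told apart. Corn oil minus feed control was 1.685 for Sult2a2, 1.545 for Hao2, 1.53 for Prom1, -1.67 for Elovl3 and -1.34 for Csad. For Asns that value was -0.21, and none of these passed. Asns differed by 3.50 ± 0.204 (SE, adjusted p = 4.88e-09), where 1,5-naphthalenediamine, N-(1-naphthyl)ethylenediamine and pentachloronitrobenzene gave -0.29, -0.20 and -0.51, none of which passed on its own in limma. Hspb1 differed by 3.35 ± 0.262. For Cyp4a12a, Psat1, Cbr3, Snhg11 and Abcc4 the means of both control groups lay below 4.25, so the sizes of their differences, at 4.50, 3.22, 4.19, 2.49 and 3.13, are of measured signals near background and are not exact. In Cyp4a12a and Psat1 the arrays of all feed chemicals also lay below their medians, and no change with those chemicals is given. Abcc4 rose with the feed chemicals as well, by at least 3.39, 0.73 and 1.41 in the order above. On the negative side Sult2a2 differed by -6.30 ± 1.09 (adjusted p = 0.00407), with feed chemical changes of 2.43, 2.65 and 2.67. Usp18, of the interferon response, differed by -1.92 ± 0.271 (adjusted p = 0.000629), with -0.79 under 2,3-benzofuran and 0.27, 0.60 and 2.38 under the feed chemicals, of which the second and the third passed on their own (adjusted p = 0.0144 and 2e-06). Against the feed control the 2,3-benzofuran value of Usp18 was -0.19 (adjusted p = 0.942).

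Some rises and falls with 2,3-benzofuran did not pass this comparison. Gsta2 differed by 1.15 ± 0.46 (adjusted p = 0.224) and Gstm3 by 1.00 ± 0.329 (adjusted p = 0.124), with feed chemical changes of 3.06, 0.77 and 1.83 for Gstm3. Txnrd1 differed by -0.14 ± 0.139 (adjusted p = 0.71). Slco1a1, among the largest falls, differed by -0.20 ± 0.762 (adjusted p = 0.935). It fell with each of the 3 feed chemicals as well, by -4.29, -3.15 and -1.98 in the order above. Of the quinone group 5 of 22 differed and were more positive, and of the ER group 7 of 24 were more positive and 1 more negative. Of the interferon group 0 were more positive and 10 of 34 more negative, and of the cholesterol group 0 and 7 of 23. In the cholesterol group 5 genes were also higher in corn oil than in feed controls. The 330 calls became 139 without treated animal 6, 139 without corn oil animal 25, 147 without corn oil animal 24 and 205 without treated animal 8.

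**Figure D5:**
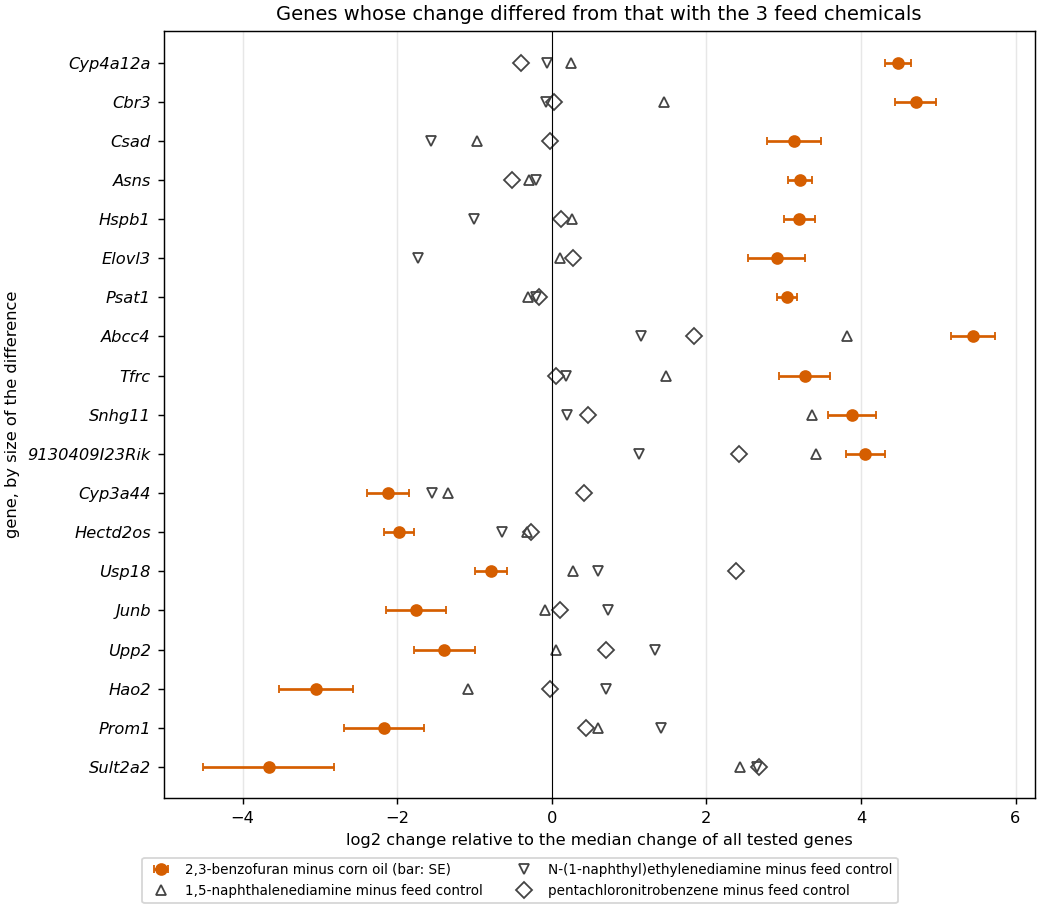
Log2 change relative to the median of all tested genes for 2,3-benzofuran minus corn oil (filled circles, bar: SE) and for each of the 3 feed chemicals minus feed control (open symbols), for 19 genes whose change differed in the comparison above. Asns lies within 0.6 of 0 under all feed chemicals. Values of Cyp4a12a and Psat1 under the feed chemicals are differences of signals below the array medians, while Sult2a2 lies below 0 with 2,3-benzofuran and above 0 with all of them.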

How the data were processed

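Liver RNA of 18 mice was measured on Affymetrix mouse expression arrays, and the log2 values deposited by the authors were used as given. Their normalization is not given in the sources used here. Of 45101 probe sets, 64 controls, 932 with several genes and 9160 with none were left out, and 34945 with 1 gene were kept, of which 34741 were matched by gene ID. Probe sets above their array's median in at least 3 of 18 arrays entered, 1 per gene by highest mean. limma 3.58.1 (R 4.3.3) fitted a mean for each of 6 groups with a variance trend (12 residual degrees of freedom), with Benjamini-Hochberg adjusted p under 0.05 over 12169 genes. p-values and SEs rest on the spread between single animals within all 6 groups, smoothed by the trend, and not on the 6 compared animals alone. The steps were tested on simulated data. Named genes were the 12 largest rises and falls called under both scalings without overlap, up to 6 members of each list per direction by size of t, regulators, rate-limiting steps and defining markers that did not pass, and the 6 largest differences from the feed chemicals in each direction. The members and lists were chosen with earlier results of these data known. The clock index and 18S signal came from probe sets of the same arrays. Quantile normalization and the other alternatives are given in the closing section. Figures were drawn with matplotlib 3.10.9 (Python 3.11.15).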

Additional observations from a re-analysis of the deposited data

Results flagged for a closer look

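The change with 2,3-benzofuran differed from the mean change with the 3 feed chemicals, by the limma difference of differences on the deposited scale, in 19 of the genes singled out by size of change or of difference. Chemical, route and control group differ together here and cannot be told apart. The difference was positive for Cyp4a12a (4.5), Cbr3 (4.19), Csad (3.93, adjusted p = 5.90e-05), Asns (3.5), Hspb1 (3.35), Elovl3 (3.31), Psat1 (3.22), Abcc4 (3.13), Tfrc (2.65), Snhg11 (2.49) and 9130409I23Rik (1.69). For Cyp4a12a, Cbr3, Psat1, Abcc4 and Snhg11 the means of both control groups lay below 4.25, so these sizes are of measured signals near background and are not exact, and Cyp4a12a and Psat1 were tested only because their treated arrays lay above the median. It was negative for Cyp3a44 (-1.34, adjusted p = 0.0495), Hectd2os (-1.62), Usp18 (-1.92), Junb (-2.05), Upp2 (-2.14), Hao2 (-2.96), Prom1 (-3.04) and Sult2a2 (-6.3). Usp18 and Upp2 each lost the call of 2,3-benzofuran against corn oil without 3 of the 6 arrays, with an adjusted p up to 0.0646 and 0.102, both without treated animal 6. Against the feed control Upp2 was at -0.27 (limma adjusted p = 0.844), and with the clock index at -0.48 (adjusted p = 0.523). Usp18 was at -0.79 with 2,3-benzofuran and at 0.27, 0.60 and 2.38 with the feed chemicals. Single feed chemicals changed some of these genes in the same direction. Snhg11 rose by at least 2.66 with 1,5-naphthalenediamine, against at least 2.85 with 2,3-benzofuran. With that chemical Tfrc rose by 1.475 and Cbr3 by at least 0.75. 9130409I23Rik rose with all 3 feed chemicals (3.41, 1.13 and 2.42 in the order above). Cyp3a44 fell with the first 2 (-1.35 and -1.55) and was at 0.42 with the third. Groups of 3 arrays are too small for the test for single outlying samples.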

How the results depend on the processing

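No paired analysis was possible because the animal numbers of the treated and corn oil groups are not shared. Of 3936 calls with 2,3-benzofuran (3013 rose, 923 fell), the rises were 1537 after quantile normalization and 1367 after centring each array on the median of the tested genes, where 2619 fell. Falls were 553 with RNA integrity as a covariate and 1386 with array weights. An adjusted p under 0.01 left 2030 calls (1694 rose, 336 fell), and an added change of at least 1 on the log2 scale left 214 (166 and 48). Settings added after seeing the data were the 18S signal and the clock index as covariates and leaving out the 5 arrays of highest 18S signal. The last, which keeps 1 treated animal, assumed to vary like the other groups, gave 886 calls (722 and 164), with 122 of 256 named genes and 128 of 925 list members called, against 366 list members with all arrays. The clock index gave 1713 calls (1401 and 312) and 234 list members. Quantile normalization with 18S gave 2051 calls, of which 1063 rose. The 330 differences from the feed chemicals became 56 with RNA integrity, 587 with array weights, 41 without the 5 arrays, 91 with the clock index, 93 at 0.01 and 103 with a change of at least 1. Leaving out 1 array gave 2798 to 3282 calls, 2236 to 2445 rises, 511 to 879 falls, 210 to 236 named genes, 283 to 318 list members and 139 to 436 differences. The feed control in place of corn oil turned the direction of Nsdhl (0.1854), Idi1 (0.1562) and Npas2 (-0.07434), the clock index that of Dbp (0.2609) and Nr1d2 (0.03734), and leaving out probe sets of shared sequence the change of Hspa8 (0.2424). Dbp and Nr1d2 are part of the clock index, so that refit cannot test them. Over named genes and planned settings, 4182 values kept direction and call, 363 lost the call and 4 turned. The cause of these moves was not tested. Signal near background limits what can be said of genes under the array median.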
